A study of Mus musculus with 2 samples.

Results

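The BAF complex (BRG1- or BRM-associated factors) is a chromatin remodelling machine, and 10 genes for its subunits were followed here in mouse neural precursor cells with extra HMGN1. The genes were taken by name: the ATPases Smarca4 and Smarca2, the core scaffold subunits Smarcc1 and Smarcc2, the DNA-binding subunit Arid1a, the precursor-type subunits Actl6a and Phf10, and the neuron-type subunits Actl6b, Dpf1 and Dpf3. Each of the 10 had 1 probe set annotated with its symbol alone, and no probe set shared a member with another symbol. They are 10 of 19938 genes in the table and 10 of 11325 above the detection floor, an intensity of 85.9. The floor was set so that 95% of 1035 probe sets for olfactory receptors, which these cells hardly use, lay under it.

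The cells were neural precursors from the forebrain of Jcl:ICR mouse embryos at E11.5. They were infected with either a control or an HMGN1 retrovirus, in medium with FGF2 and EGF, the mitogens that keep precursors dividing. The cells were replated 3 days later on poly-D-lysine and kept for 1 day without either factor before total RNA was taken, so mitogen withdrawal was common to both groups. Whole-transcript arrays were hybridised with 1 RNA sample per virus, which leaves no replicates and allows no test between the groups. The labels do not give the promoter of the virus, the share of infected cells or the number of embryos.

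BAF complexes use ATP to move or evict nucleosomes, and are built from a fixed core and exchangeable subunits. When neural precursors leave the cell cycle, the actin-related subunit ACTL6A (BAF53a) gives way to ACTL6B (BAF53b), the PHD finger subunit PHF10 (BAF45a) to DPF1 and DPF3 (BAF45b and BAF45c), and SS18 to SS18L1 (CREST). In neurons the microRNAs miR-9-3p (miR-9*) and miR-124 repress Actl6a, and the repressor REST holds these microRNAs down in cells that are not neurons. HMGN1 is a nucleosome-binding protein, and the single comparison of the series asks how extra HMGN1 alters RNA levels when precursors begin to differentiate.

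The regulatory sequences of this exchange are shown for the pair Actl6a and Actl6b, as RefSeq gives them for assembly GRCm38.p6. The arms of the miR-9 hairpin are printed 5′ to 3′ with the seed, bases 2 to 8, in capitals; the 3p arm is the one that acts on Actl6a, and the arms do not share a seed. The same 22-base 3p sequence is made from Mir9-1 on chromosome 3, Mir9-2 on chromosome 13 and Mir9-3 on chromosome 7.
mmu-miR-9-3p: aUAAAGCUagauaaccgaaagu
mmu-miR-9-5p: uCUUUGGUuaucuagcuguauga

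The promoter windows run from 250 bases before the gene start to 50 bases after it, on the gene's strand, with each CpG (the letters CG) in capitals. The Actl6a window is chr3:32708296-32708595 (plus strand) and the Actl6b window is chr5:137553296-137553595 (plus strand).
Actl6a promoter: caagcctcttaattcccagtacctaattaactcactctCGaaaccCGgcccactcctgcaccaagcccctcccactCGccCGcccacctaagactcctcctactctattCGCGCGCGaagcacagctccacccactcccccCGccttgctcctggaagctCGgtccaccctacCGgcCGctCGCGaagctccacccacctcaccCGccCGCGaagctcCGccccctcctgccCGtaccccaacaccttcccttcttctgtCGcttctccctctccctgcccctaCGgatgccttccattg
Actl6b promoter: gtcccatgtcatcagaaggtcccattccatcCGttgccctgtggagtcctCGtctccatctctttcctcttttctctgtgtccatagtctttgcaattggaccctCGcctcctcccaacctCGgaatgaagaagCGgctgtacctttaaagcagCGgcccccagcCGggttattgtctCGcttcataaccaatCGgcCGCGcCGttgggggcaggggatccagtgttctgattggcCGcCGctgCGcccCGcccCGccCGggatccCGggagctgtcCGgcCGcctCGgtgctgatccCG

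The precursor gene and the neuron gene had promoters of like CpG content, with 21 CpGs in the Actl6a window and 23 in that of Actl6b, and a G+C share of 63.7% and 61.7%. All 10 members had a window in the table, 11 windows in all because Arid1a has 2. Each of the 11 held at least 10 CpGs, against 43.5% of 32851 promoter windows and 80.8% of the 11597 windows of detected genes. Dpf3 had the fewest, 17, and Phf10 the most, 62, more than 99.95% of all windows. The others were Smarca2 with 29, Smarca4 and Smarcc1 with 33 each, Dpf1 with 39, Smarcc2 with 48 and Arid1a with 36 and 22. The median was 7 over all windows and 21 over windows of detected genes, so detected genes in general had CpG-rich windows. The neuron-type genes, at 17, 23 and 39 CpGs, were spread among the other members.

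**Figure D1:**
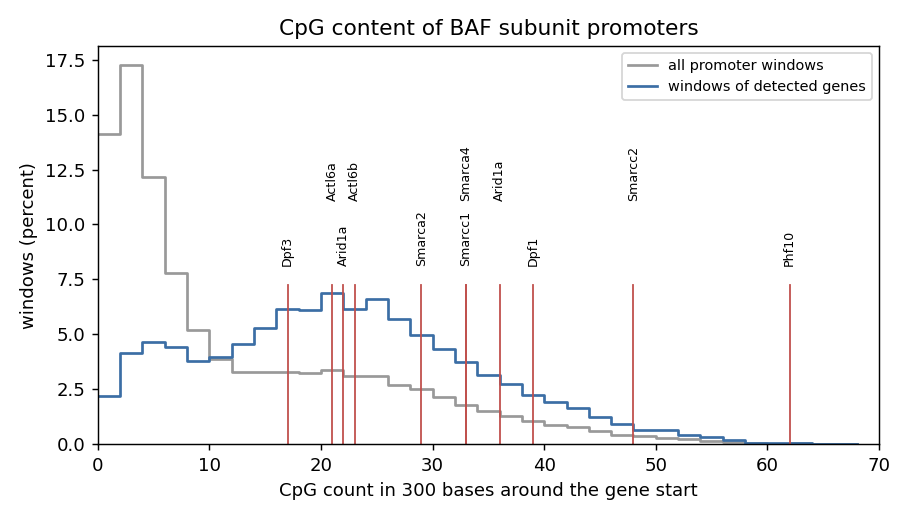
CpG counts in 300-base promoter windows: the horizontal axis is the count per window, the vertical axis the percent of windows in bins of 2 for all windows (grey) and for windows of detected genes (blue). Each red line is a window of a BAF subunit gene; the 11 lines run from 17 (Dpf3) to 62 (Phf10).

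Hmgn1 itself was higher after its virus, although the sources used here do not say whether its probes lie in the part that the virus carries. It read 230 in the control virus sample and 348 in the HMGN1 virus sample, a log2 difference of 0.57, and 2 of the 11325 detected genes had a higher one. Differences are HMGN1 virus minus control virus on log2(intensity + 16) throughout. Their median over all detected genes was 0.027 and their SD 0.111. As a rough measure of scatter, the differences of several probe sets for 1 gene had an SD of 0.0891 over 683 genes. It leaves out any variation between cultures or RNA preparations. It may include differences between transcripts of a gene, and it counts some probe sets with the same readings, as for Pcna.

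No BAF member reached a log2 difference of 0.32 between the arrays, the size counted here in place of a test. Of the 10 members 0 were higher and 0 lower by that much, where 0.494% and 0.521% of all detected genes passed that size, and 0 passed 1.5-fold, where the shares of all detected genes were 0% higher and 0.0706% lower. By direction alone 6 members were higher and 4 lower, near the 60.1% of all detected genes that were higher and the 38.4% that were lower. The members ran from -0.051 (Actl6b) to 0.16 (Dpf3), with a median of 0.057.

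**Figure D2:**
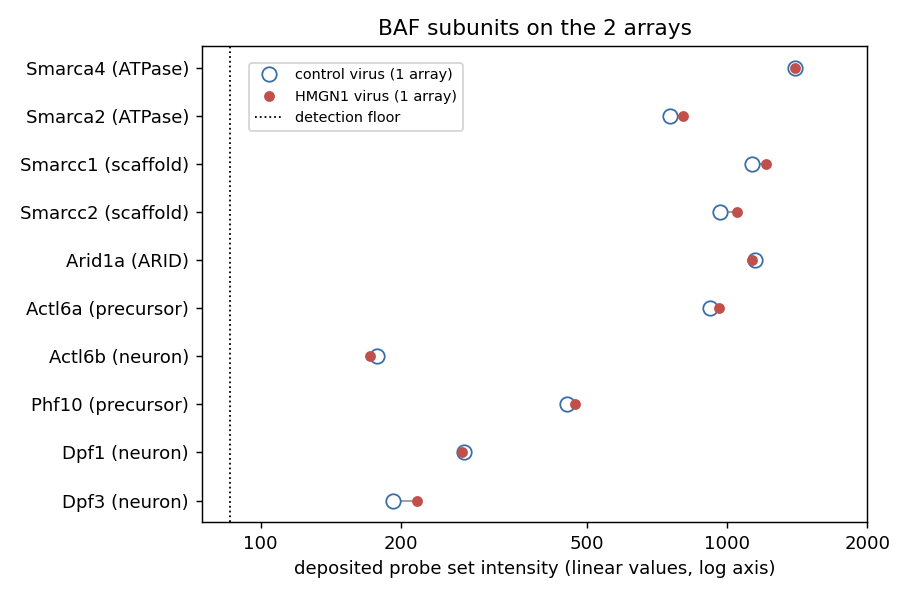
Deposited intensity of the 10 BAF subunit genes on both arrays: the horizontal axis is the linear intensity on a log axis, each row a gene with its role, open circles the control virus and filled circles the HMGN1 virus (1 array each), and the dotted line the detection floor of 85.9. The circles of a gene lie close together in every row, and Dpf3 shows the widest gap; positions of different genes are readings of different probes and are not compared.

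The ATPases drive the complex, and each complex carries one of them. Smarca4, which encodes BRG1, read 1398 on the control array and 1396 on the HMGN1 array. Its log2 difference of -0.0018 was the smallest of any member. Smarca2, which encodes BRM and is used more as cells differentiate, read 754 and 805, a difference of 0.092. That is 1.07-fold and just past the SD between probe sets, within which it fell under 5 alternatives (0.040 to 0.087). The gap between Smarca2 and Smarca4, 0.094, was smaller than the 0.126 that the same scatter gives for a pair of probe sets.

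The scaffold subunits hold the core together, and both were higher in the HMGN1 virus sample. Smarcc1 (BAF155) read 1131 and 1211, a log2 difference of 0.098. For Smarcc2 (BAF170), a regulator of cortical size, the readings were 967 and 1051 and the difference 0.12. The scaffolds thus stood close, with 0.021 between their differences. Each was past the SD between probe sets as reported, but Smarcc1 fell within it when differences were centred (0.071), and both did with the intensity trend removed (0.064 and 0.083) or the gene span trend removed (0.046 and 0.078). Arid1a (BAF250a), the large subunit that defines canonical BAF, read 1146 and 1130, with a difference of -0.021.

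The actin-related pair is the best known part of the exchange. Actl6a, the precursor-type subunit needed for proliferation, read 918 on the control array and 960 on the HMGN1 array (0.063). Actl6b, the neuron-type subunit needed for dendrite growth, read 178 and 171 (-0.051). Each difference was within the SD between probe sets. The difference of Actl6b minus that of Actl6a was -0.11, a gap of 0.905 times the scatter of a pair of probe sets.

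Among the PHD finger subunits, which read histone tails, the members differed in sign. Phf10, the precursor-type subunit, read 454 and 471 (0.051). Dpf1, the first neuron-type subunit, read 273 and 271 (-0.012), so it was nearly level. Dpf3, the other neuron-type subunit, had the largest difference of all members: 192 and 217, a log2 difference of 0.16 or 1.12-fold. That difference was higher than that of 91.4% of detected genes and 1.83 times the SD between probe sets. The highest of several genes tends to rank high by selection alone, so this rank does not by itself set Dpf3 apart. Dpf3 and Dpf1 thus differed from each other by 0.17, against 0.126 for the scatter of a pair. The Dpf3 intensity was 2.37 times the detection floor, in a range (195 to 304) where the differences of all genes had an SD of 0.107.

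Taken by type, the neuron subunits and the precursor subunits had close mean differences. The mean difference was 0.034 for Actl6b, Dpf1 and Dpf3 and 0.057 for Actl6a and Phf10, a gap of -0.024. Ss18 and Ss18l1 are not members and are not in these means, and their gap of 0.13 had the other sign. Dpf3 made the gap of -0.024 smaller in size: without Dpf3, left out after the values were seen, the gap was -0.088. A gap without Actl6b, the lowest member at -0.051, was not computed, so the sign may rest on 1 gene. Actl6b and Dpf1 read lower differences than Actl6a and Phf10, and Dpf3 a higher one. Both gaps as reported were smaller in size than the SD between probe sets, 0.0891. The gap without Dpf3 passed it after quantile normalization (-0.0903) and with an offset of 1 (-0.0923). Under the other alternatives that gap ran from -0.0885 to -0.0787. Members past the SD between probe sets, a size chosen after the values were seen, were Smarca2, Smarcc1, Smarcc2 and Dpf3 on the higher side (4 of 10) and 0 on the lower side. Of all detected genes 26.9% were higher and 14.0% lower by that much. Once differences were centred on the median gene, 2 members were higher by that much against 18.3% of all genes. With the trend in intensity removed 1 was, against 18.7%, and with the trend in gene span (the annotated length with introns) removed 1 was, against 18.1%. The count was 3 after quantile normalization (25.2% of all genes), 4 with an offset of 1 (28.5%) and 3 with an offset of 64 (21.4%).

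**Figure D3:**
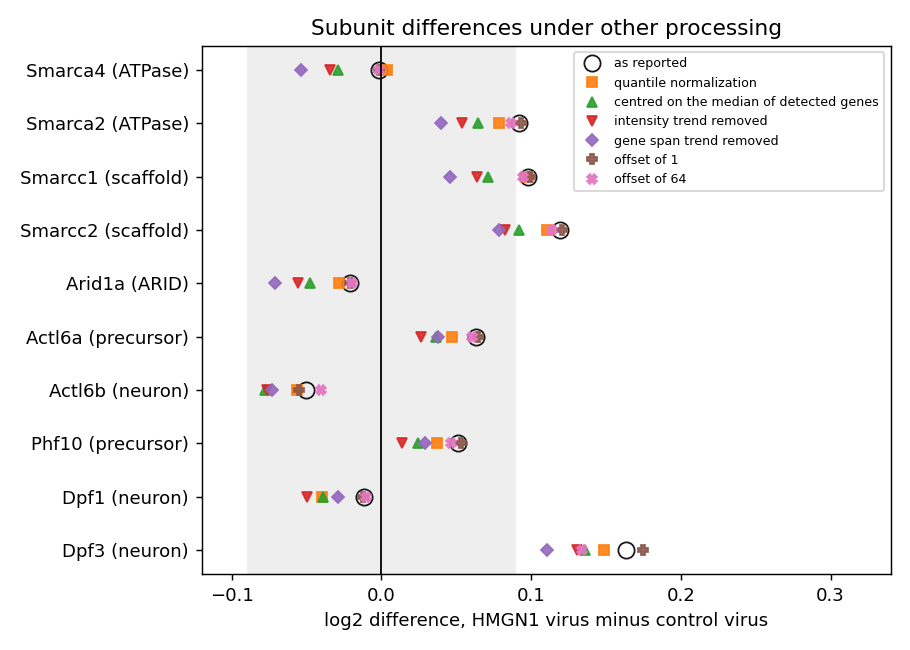
Log2 differences (horizontal axis, HMGN1 virus minus control virus) of the 10 subunit genes as reported (open circles) and under 6 other ways of processing (coloured symbols). The grey band is the SD between probe sets, 0.0891 either way; Dpf3 is the 1 gene whose values all lie beyond it, from 0.11 to 0.18, and Smarca4 the 1 gene with values on both sides of 0.

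Of the rest of the BAF family, all 20 listed genes were above the floor. Among these 11 were higher, 8 lower and 1 the same, beside 60.1% higher and 38.4% lower of all detected genes. The median was 0.020, beside 0.027 for all detected genes. By a log2 difference of 0.32, 0 were higher and 0 lower, where 0.494% and 0.521% of all detected genes were. Ss18, the precursor-type partner, read 294 and 281 (-0.063), and its neuron-type counterpart Ss18l1 read 298 and 313 (0.067). Their gap of 0.13 pointed to the neuron type, opposite to the gap of Actl6b and Actl6a, and was 1.03 times the scatter of a pair. The lowest gene was Smarcd3 (BAF60c, 399 and 361, -0.14). The highest was Pbrm1, the polybromo subunit that marks the PBAF form, at 1349 and 1560 (0.21), with 0.059 and 0.12 on its other probe sets.

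Of the 3 subunits of PBAF listed, Arid2, its ARID subunit, differed by 0.11 and Brd7, its bromodomain subunit, by 0.095, beside Pbrm1. None of the 3 reached a log2 difference of 0.32, and 60.1% of all detected genes were higher at any size. The 3 subunits of noncanonical BAF lay between -0.018 (Bicra) and 0.099 (Brd9). The accessory subunit Smarce1 (BAF57) gave 0.12, 0.12 and 0.14 on 3 probe sets, which may also catch near-identical copies of the gene. Smarcd2 had the same value, 99.04, in both columns, as did 749 probe sets of the whole table.

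Other remodeller families are given for comparison, and no test of a difference between families was possible. Their counts stand beside 60.1% of all detected genes higher, 38.4% lower and a median of 0.027. Of 11 listed ISWI genes Smarca1 was under the floor. The median of the other 10 was 0.022 (6 higher, 4 lower), from Smarca5, an ATPase, at -0.31 (627 and 502) to Rsf1 at 0.13. For 14 INO80 and SWR1-like genes it was 0.014 (8 higher, 6 lower), from Ino80b at -0.10 to Actr6 at 0.20. For 14 NuRD genes it was 0.055, near that of the BAF members, with 13 higher and 1 lower, from Rbbp7 at -0.016 to Mbd2 at 0.17. NuRD also changes its ATPase with neuronal maturation, and here Chd4, the ATPase of precursors, differed by 0.095, Chd3 by 0.041 and Chd5, the ATPase of neurons, by 0.036.

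**Figure D4:**
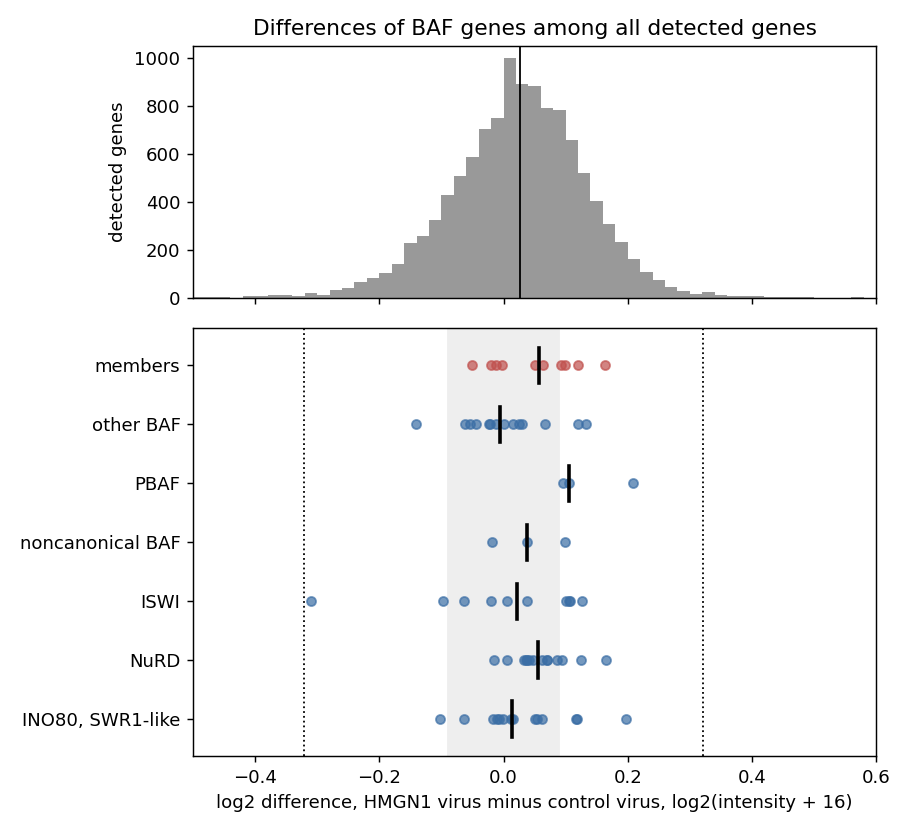
The upper panel counts detected genes (vertical axis) by log2 difference, HMGN1 virus minus control virus, with their median of 0.027 as a line. The lower panel shows each detected gene of a complex as a point and the median of the group as a bar, over a grey band of 1 SD between probe sets (0.0891) and dotted lines at a log2 difference of 0.32 either way; every BAF point lies inside the dotted lines, as do those of the other families.

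Regulators of the exchange had differences of either sign, beside 60.1% of all detected genes higher and 38.4% lower. Rest, the repressor of neuronal genes, read 150 and 152 (0.016). Of the 6 genes for REST and its partners 3 were higher and 3 lower, led by the corepressor Rcor1 at 336 and 386 (0.19), with Ctdsp2, a small phosphatase, lowest at -0.056. Of 12 listed microRNA genes and hosts, 4 had a probe set with 1 symbol, and Mir9-2 was not among them. Probe sets for microRNA genes read the hairpin region and not the mature arm. Mir9-1 gave 766 and 751 (-0.028) and Mir9-3 gave 128 and 136 (0.073), while Mir124a-2 (61.6 and 62.9) and Mir124a-3 (22.8 and 27.8) were under the floor.

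The splicing repressor Ptbp1, which miR-124 lowers in neurons, gave -0.026 (1143 and 1122) on its brighter probe set and -0.25 (753 and 628) on the other. Its neuronal relative Ptbp2 differed by 0.10 (2263 and 2434).

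The culture held markers of precursors, neurons and glia, and counts of higher and lower markers are to be set beside the 60.1% and 38.4% of all detected genes. All 10 precursor markers were above the floor, 4 higher and 6 lower, with a median of -0.022 (lowest Sox1 at -0.35, highest Pax6 at 0.11) and summed intensities of 24746 and 24529. Of 9 cycling-cell markers 4 were higher and 5 lower, with a median of -0.047 (Ccne2 at -0.31, Mcm2 at 0.067). Of 10 neuron markers 9 were detected, 6 higher and 3 lower, with a median of 0.087 (Tubb3 at -0.17, Syt1 at 0.27) and sums of 9023 and 9406. Astrocyte markers were higher for 5 of the 6 detected, 2 of them by at least 0.32 (median 0.22, sums 3776 and 4146, Gfap highest at 0.58, Aldoc lowest at -0.072). Oligodendrocyte markers were likewise higher for 5 of 6, 1 of them by that much (median 0.19, sums 3396 and 3460, Enpp6 highest at 0.46, Olig2 lowest at -0.16).

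Markers of cells from outside the neural lineage were near or under the floor. Of those measured, 0 of 5 endothelial and 0 of 4 erythroid markers were above it, 1 of 5 for microglia (Cx3cr1, 0.0080) and 3 of 5 for mesenchyme (Col1a1 lowest at -0.19, Pdgfrb highest at 0.042). In a mixed sample, fewer cells of a type and less RNA per cell cannot be told apart, and the part of cell composition in the BAF values was not tested.

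The members also differed in gene span, and over all detected genes long spans came with higher differences. The 2260 genes of shortest span (up to 7.30 kb) had a median difference of -0.017, and the 2259 of longest span (from 74.97 kb) a median of 0.054. Smarca2, Smarcc1, Dpf3, Smarca4 and Arid1a belonged to the longest, and Actl6b, Phf10 and Dpf1 to the 2260 after the shortest (7.30 to 16.9 kb, median 0.011). Actl6b and Actl6a have like spans, 16.2 and 18.4 kb, and with that trend removed they differed by -0.073 and 0.038, each lower by about the same amount. Dpf3, with a span of 274 kb, went from 0.16 to 0.11.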

How the data were processed

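The authors deposited 1 table of probe set intensity values for 2 arrays, 28944 per array on a linear scale, from biotin-labelled RNA (GeneChip WT kit, per the labels' protocols). Background correction, normalization and summarisation are not given in the sources used here, and no further normalization was applied. The deposited intensities had medians of 101 and 98.8, and the number of arrays limits the precision.

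Genes were named from the platform annotation in GEO, using the 21789 probe sets with 1 symbol; 1621 had several and 5534 were unnamed. All 10 members matched RefSeq (GRCm38.p6) by gene number and symbol. The table names no build, so coordinates are given only for RefSeq sequences.

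Where a gene had several probe sets, the one with the highest mean log2(intensity + 16) stood for it, and the gene was detected when that mean reached the floor. With 1 array a group no test was possible. Log2 differences of at least 0.32 were counted instead. All members are named, with Hmgn1 and the highest and lowest detected gene of each list and genes fixed by name. The code was tested on simulated data. Alternatives were quantile normalization, centring, removal of intensity or gene span trends by loess (span 0.3), offsets of 1 and 64, averages over a gene's probe sets, a floor at the 99th percentile or none, and 1.5-fold. The members, lists and sizes were chosen with earlier results of these data known. Python 3.11.15, pandas 2.3.3, NumPy 2.4.6 and statsmodels 0.14.6 were used.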

Additional observations from a re-analysis of the deposited data

How the results depend on the processing

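The counts of members higher or lower by a log2 difference of at least 0.32 were 0 as reported and under all 10 alternatives run for each. At 1.5-fold a count of 0 could not rise. The gap between neuron-type and precursor-type members, taken without Ss18 and Ss18l1, ran from -0.031 to -0.018 under 7 alternatives. Ss18l1 minus Ss18 had the other sign (0.13), and a gap with that pair included was not computed, so the sign holds for the members only. Centring could not change the gap of the members. The median of the members, 0.057, became 0.020 with the intensity trend removed. That shift was beyond the scatter assumed, which was that of a mean of 10 probe sets. With the same trend removed, the median of all detected genes also fell, from 0.027 to 0.00033. The cause of the shift was not tested. Under the other 8 alternatives the median of the members ran from 0.030 to 0.059. Of the single members, none shifted beyond 1 SD between probe sets under its 7 alternatives, and Smarca4 alone changed sign, to 0.0036 after quantile normalization. The members had 1 probe set each, so averaging probe sets and the floors could not change their values. Alternatives for the size of 1 SD between probe sets and for the gap without Dpf3 were added after seeing the data. No paired analysis was possible because each virus has 1 array, and leaving out an array was not possible either. Signal limits Actl6b and Dpf3, 2.03 and 2.37 times the floor, where the offset compresses differences most: without an offset Dpf3 differed by 0.18 and Actl6b by -0.055.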

Other observations

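Smarca5, an ISWI ATPase, had the lowest difference of the remodeller genes listed, -0.31 on its own probe set (627 and 502). The 3 probe sets that it shares with a pseudogene and a predicted gene did not follow, at -0.042, 0.0053 and 0.062, so the probe sets disagree. The 2 probe sets of Rbbp7, a histone-binding subunit of NuRD, also disagreed, at -0.016 (497 and 491) and 0.20 (431 and 496), and those of Bptf, the large subunit of an ISWI complex, gave 0.038 and 0.21. In each case the probe sets differed by more than 0.126. That is only 1 SD for a pair, which scatter alone often passes. So did the probe sets of Ptbp1 (-0.026 and -0.25), and for Pbrm1 those at 0.21 and 0.059. The genes of this paragraph were picked after their values were seen.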
